A study of Rattus norvegicus with 64 samples.

Results

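Seeded grafts of the rat bladder wall were compared between 90 and 180 days after surgery, the later interval in which a graft that is already lined and populated goes on remodelling. The members were the 8 arrays of BAM seeded with ASCs at 90 days and the 8 arrays of the same graft at 180 days, chosen by the treatment and time in the sample labels and by no measured value. They were 16 of the 64 arrays of the series. BAM, bladder acellular matrix, is bladder wall stripped of its cells, and ASCs are the stromal cells that grow out of digested fat. The animals of both groups were male Wistar rats that had lost part of the bladder and received a BAM patch carrying cultured ASCs isolated from fat of male Wistar rats, and the labels of the groups differ only in the time after surgery. Each array held total RNA of the reconstructed wall of 1 rat, after the graft had been cut away from the native bladder, and only samples with well preserved RNA had been put on arrays. The labels name the 8 arrays of a group biological replicates, and the age of the operated rats was not given. Ungrafted bladder was not analysed here, and RNA of the seeded ASCs cannot be told apart from RNA of the host.

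The bladder wall is lined by urothelium, whose luminal cells carry uroplakins, and its thick outer layer, the detrusor, is smooth muscle. Between them lies connective tissue with blood vessels, nerves and resident immune cells. A healing graft is covered by urothelium early, while vessels, muscle and matrix are rebuilt over a longer time. Insulin-like growth factors (IGFs) are secreted peptides that drive growth and survival of many cell types, and the IGF-binding proteins carry them in the matrix and in blood and set how much reaches the receptor. The wall is bulk tissue, so fewer cells of a type and less RNA per cell cannot be told apart in these data.

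The promoters of the IGF genes that rose, described with their values further on, are shown because these genes formed the list with the largest share of members past the thresholds. RefSeq entries (rat build GRCr8) were found for the 4 called genes of that list. Each run gives the 250 bases before the annotated start, 5′ to 3′ on the gene's strand, in lower case. Capitals mark matches to TATAAA, the box that sits ahead of some start sites, or to GGGCGG, the box read by Sp1, searched on both strands, and no matches overlapped. TGANTCA, the AP-1 element, was searched too and had no match in these runs. Over the 33469 promoters of that length, 12.9% held TATAAA, 30.5% held GGGCGG and 6.34% held TGANTCA.
Igfbp7, chr14:31091486-31091735, plus strand: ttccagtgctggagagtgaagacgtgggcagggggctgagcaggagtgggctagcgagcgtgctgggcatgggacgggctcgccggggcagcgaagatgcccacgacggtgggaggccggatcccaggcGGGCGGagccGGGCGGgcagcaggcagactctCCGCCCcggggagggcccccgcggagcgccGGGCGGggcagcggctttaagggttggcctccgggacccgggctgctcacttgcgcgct
Igfbp4, chr10:84491221-84491470, plus strand: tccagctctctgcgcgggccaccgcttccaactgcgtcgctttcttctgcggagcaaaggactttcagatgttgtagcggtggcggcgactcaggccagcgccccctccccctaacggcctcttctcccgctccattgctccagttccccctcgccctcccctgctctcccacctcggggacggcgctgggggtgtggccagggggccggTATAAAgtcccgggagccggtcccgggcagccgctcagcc
Igf2, chr1:207250476-207250725, minus strand: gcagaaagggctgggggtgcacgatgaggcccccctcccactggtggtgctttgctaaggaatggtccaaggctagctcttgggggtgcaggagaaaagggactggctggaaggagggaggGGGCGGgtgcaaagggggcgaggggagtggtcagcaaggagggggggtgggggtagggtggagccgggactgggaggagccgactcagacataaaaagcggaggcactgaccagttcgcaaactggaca
Igfbp1, chr14:86261027-86261276, plus strand: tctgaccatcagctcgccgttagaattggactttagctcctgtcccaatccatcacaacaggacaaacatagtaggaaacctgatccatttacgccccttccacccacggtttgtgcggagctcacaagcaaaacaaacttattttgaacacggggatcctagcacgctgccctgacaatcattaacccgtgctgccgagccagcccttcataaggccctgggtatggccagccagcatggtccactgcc
The Igfbp7 run held 4 matches to GGGCGG and none to TATAAA, and the Igfbp4 run held 1 match to TATAAA and none to GGGCGG. The Igf2 run held 1 match to GGGCGG, while a separate Igf2 start in the table, at chr1:207253981-207254230 on the minus strand, held neither motif. The Igfbp1 run held neither. A match is a description of these letters only.

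The arrays were 1-colour Agilent arrays. Between 54.3% and 64.6% of spots were well above background at 90 days and between 55.3% and 59.9% at 180 days. All arrays of a group lay on 1 slide, 2 slides in all, and both slides carried 1 scan date, so that slide and time cannot be told apart. The median local background of an array was 108 ± 7.03 (SD, n = 8) intensity units at 90 days and 136 ± 11.8 (SD, n = 8) at 180 days, and the ranges, 99 to 120 and 119 to 152, barely met. Replicate 3 of 90 days stood apart from its group. Its median correlation with the other arrays of the group was 0.965, against 0.985 to 0.988 for the others, and the 180-day arrays had 0.968 to 0.984. Calls lost without it, and changes it moved by over 1.5 times, are given both ways.

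A gene's level is given as the log2 of its signal relative to the array's 75th percentile, and a change is the mean at 180 days minus the mean at 90 days on that log2 scale. A probe counted as differentially expressed (DEG) where its fold exceeded 1.5 and its adjusted p was below 0.01. Over the 12930 probes well above background on all 16 arrays, 835 (6.46%) were called in limma's fit with Benjamini-Hochberg adjustment. Of these 778 (6.02%) rose and 57 (0.441%) fell, so that 93.2% of the calls were rises. Where a list had no call, it was checked by the same linear model without moderation of the variance too, called the unmoderated test below. With the percentile taken over detected probes alone, 621 rose and 138 fell, and the share of rises was 81.8%. The median change over all probes was -0.01. The 16 arrays separated without overlap for 485 of the 778 rises and for 15 of the 57 falls. Without replicate 3 of 90 days, 780 probes rose and 45 fell, and 760 of the 835 calls were shared.

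The rises came mostly from probes without a gene name. Through their RefSeq accession, 8808 of the probes tested could be named, and 246 of these (2.79%) rose. Probes known only by the array's own name numbered 1344, and 314 of them (23.4%) rose. The share was 9.2% for probes of Ensembl transcripts and 6.28% for RefSeq accessions absent from the naming table. Of the 50 largest rises, 4 had a gene name. The largest of all, A_64_P127742, rose by 2.38 with overlapping groups, and A_64_P084318 rose by 2.27 and A_64_P112262 by 2.25 without overlap. What these probes measure was not tested, and they are given as probe names only.

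Over all probes together the rises were spread evenly over signal levels and the falls were not. With the probes in 4 equal groups by mean level, 6.28% rose in the dimmest group and 5.69% in the brightest. Among named probes these shares were 3.43% and 2.37%. Probes without a name had 13.3% in the dimmest group, 13.9% and 16.3% in the next and 9.94% in the brightest. Falls over all probes numbered 36 in the dimmest group, 14 and 6 in the next groups and 1 in the brightest. The falls thus lay mostly among dim probes, and local background was higher at 180 days (above). Its part in the falls was not tested.

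**Figure D1:**
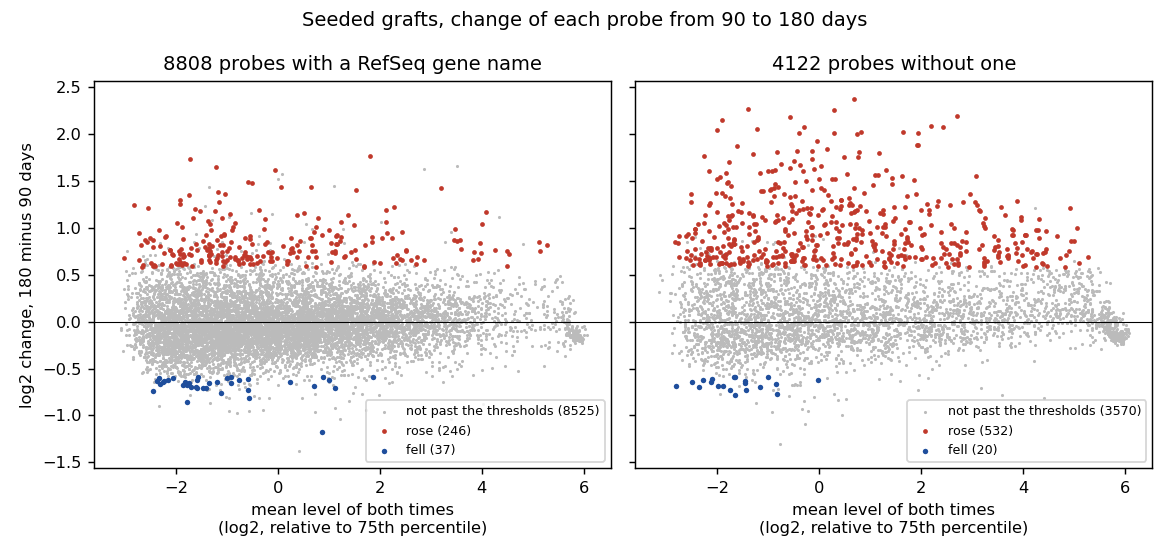
Change from 90 to 180 days (y axis, log2) against the mean level over the 16 arrays (x axis, log2 relative to the 75th percentile) for probes with a gene name and for the others, with the DEGs coloured. Rises are found at all levels, and most of the 57 falls lie on the left, among the dim probes.

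Each named gene was then taken by its brightest probe. Of 7737 genes, 227 (2.93%) rose and 28 (0.362%) fell. The rises ran from 0.59 to 1.77 with a median of 0.76, and the falls from -1.17 to -0.59 with a median of -0.64. The groups did not overlap for 115 of the genes that rose (1.49% of all genes) and for 3 of those that fell (0.0388%). Whether called or not, 195 genes (2.52%) had all 180-day arrays above all 90-day arrays and 85 (1.1%) had them all below. At an unadjusted p below 0.05, 1149 of the 7737 genes were higher and 1289 lower, the background for such counts in the lists below. Without replicate 3 of 90 days, 200 genes rose and 20 fell.

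The largest rise was that of Etv3, an ETS-family transcriptional repressor. Its level was 0.28 to 1.21 at 90 days (median 0.94) and 2.30 to 3.07 at 180 days (median 2.63). All 180-day arrays lay above all 90-day arrays. The change was 1.77 ± 0.14 (SE, n = 8 and 8), a 3.41-fold rise, with an adjusted p of 2.51e-16 in limma's fit.

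Id3, which encodes an inhibitor of helix-loop-helix transcription factors and is a common target of Bmp signalling, came next. Its level went from -3.04 to -2.25 at 90 days (median -2.62) to between -1.16 and -0.41 at 180 days (median -0.94). The groups lay far apart, and the change was 1.73 ± 0.18 (adjusted p = 7.16e-12 in limma's fit). The other Id genes of the list did not pass, with changes of -0.23 for Id1 (-0.11 without replicate 3 of 90 days), -0.20 for Id2 and -0.19 for Id4.

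Bcl11a, a zinc finger repressor known from blood and nerve cells, was between -1.20 and -0.36 at 90 days (median -0.68) and between 0.40 and 1.34 at 180 days (median 0.76), and rose by 1.43 ± 0.17 without overlap. Dlx3, a homeobox gene of skin and other epithelia, went from -1.87 to -1.53 (median -1.75) to between -0.85 and 0.27 (median -0.42), a rise of 1.36 ± 0.18. Ccnf, the cyclin of an SCF ubiquitin ligase, was between -2.46 and -1.31 at 90 days and between -0.87 and -0.21 at 180 days, and rose by 1.38 ± 0.13. For each of these genes the lowest 180-day array stood above the highest 90-day array. Ppp1r14bl, named after a phosphatase inhibitor, rose by 1.64 ± 0.14, and Gnal, the G protein subunit of olfactory neurons, rose by 1.36 ± 0.13, neither with overlap.

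Cx3cr1, the fractalkine receptor of monocytes and resident macrophages, was between -0.85 and 0.37 at 90 days (median -0.02) and between 0.42 and 2.00 at 180 days (median 1.44). The groups did not overlap and the change was 1.43 ± 0.21 (adjusted p = 1.41e-07 in limma's fit). The general macrophage genes given further on did not pass. Cym, the milk-clotting protease chymosin, was between 1.93 and 3.01 at 90 days and between 2.82 and 4.62 at 180 days, and rose by 1.43 ± 0.18, with 7 of 8 later arrays above all earlier ones.

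Other large rises overlapped between the groups. Rnls, the flavin enzyme renalase, was between -1.51 and 0.71 at 90 days (median -1.19) and between -0.38 and 2.68 at 180 days (median 0.47), a change of 1.61 ± 0.35. Cnfn, cornifelin of the cornified cell envelope, had medians of -1.33 and -0.46, and its change was 1.48 ± 0.39. Replicates 5 and 6 of 180 days, at 2.94 and 2.30, stood far above the other arrays, and without either of them the change of Cnfn, 1.096 and 1.19, did not pass. RT1-T24-4, a class I histocompatibility gene, was between -0.28 and 2.40 at 90 days and between 1.83 and 2.86 at 180 days, and only 1 of 8 later arrays lay above all earlier ones, with a change of 1.41 ± 0.35. RT1 genes resemble each other closely, and signal from near copies could not be separated here. Fitted on the 16 arrays alone, Rnls and Cnfn did not pass.

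Growth factors and their binding proteins held the largest share of members called among the lists. Of 29 genes on the list, 13 were measured on all arrays, 4 rose and none fell in limma's fit, against 2.93% of all genes that rose. At an unadjusted p below 0.05 no member was lower either. The median change of the 13 was 0.44, against -0.03 over all genes, and 12 of them lay above 0. Without replicate 3 of 90 days the same number, 4, rose, with a median of 0.29. With normexp background correction, with quantile normalization and with the percentile over detected probes, 3 rose in each.

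Igfbp7, an IGF-binding protein of vessel walls and matrix whose promoter is shown above, was between 0.17 and 1.07 at 90 days (median 0.82) and between 1.57 and 1.95 at 180 days (median 1.77). No array of either group reached into the other. The change was 1.06 ± 0.13, a 2.09-fold rise (adjusted p = 9.07e-10 in limma's fit), and 0.99 without replicate 3.

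Igf2, the growth factor that dominates before birth, was between 0.80 and 2.27 at 90 days (median 1.66) and between 1.84 and 2.85 at 180 days (median 2.66). It rose by 0.90 ± 0.19 (adjusted p = 3.05e-04 in limma's fit), with 6 of 8 later arrays above all earlier ones. Igfbp4, a binding protein that holds back IGF action, was between 2.14 and 3.54 (median 3.28) and then between 3.29 and 4.31 (median 4.09), a rise of 0.88 ± 0.20. Without replicate 3, the lowest array for both, they still passed, at 0.78 and 0.73. Igfbp1, the binding protein best known from liver, lay low, between -3.23 and -2.67 at 90 days and between -2.60 and -1.78 at 180 days, and rose by 0.61 ± 0.12 without overlap. Under normexp (0.43), quantile normalization (0.51) and the percentile over detected probes (0.53) Igfbp1 missed the fold.

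The members of the list that did not pass ran from -0.18 for Igfbp3 (-0.30 without replicate 3 of 90 days) to 0.53 for Fgf1. Fgf1, a fibroblast growth factor, reached an adjusted p of 4.48e-03 with less than the required fold, and Igf1 changed by 0.48 ± 0.17, or by 0.28 without replicate 3.

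Endothelial genes were also higher at 180 days, but part of their calls rested on 1 array. Of 28 genes on the list, 20 were measured on all arrays. In limma's fit 5 of the 20 rose, against 2.93% of all genes, and none fell. The median change of the 20 was 0.42, and 19 of them lay above 0. At an unadjusted p below 0.05, 11 were higher and none lower. Without replicate 3 of 90 days, 1 gene passed and the median was 0.33. Under normexp 3 passed, under quantile normalization 2 and with the percentile over detected probes 1.

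Cldn5, the claudin of endothelial tight junctions, was between -1.12 and 0.41 at 90 days (median 0.17) and between 0.49 and 1.24 at 180 days (median 0.75), with no overlap. Its change was 0.75 ± 0.17 (adjusted p = 3.86e-04 in limma's fit), and 0.59 without replicate 3, which was its lowest array. Kdr, the main VEGF receptor, was between 1.17 and 2.04 at 90 days (median 1.69) and between 1.98 and 2.59 at 180 days (median 2.34). It rose by 0.62 ± 0.17, and without replicate 3 its change of 0.55 had an adjusted p of 0.0149 in limma's fit, above the threshold, as under quantile normalization and the percentile over detected probes.

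Nos3, the endothelial nitric oxide synthase, was between -3.31 and -1.08 at 90 days (median -1.46) and between -1.40 and -0.39 at 180 days (median -1.08). The change of 0.73 ± 0.21 became 0.50 without replicate 3 and then missed the threshold, as it also did under normexp, quantile normalization and the percentile over detected probes. Nor did Nos3 pass on the 16 arrays alone. Vwf, von Willebrand factor, was between -0.71 and 0.31 and then between -0.01 and 1.12, and rose by 0.65 ± 0.17, with a further probe of the gene at 0.83. Plvap, a protein of endothelial fenestrae, rose by 0.60 ± 0.13. Without replicate 3, Vwf at 0.57 and Plvap at 0.52 kept their adjusted p below the threshold and missed the fold.

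**Figure D2:**
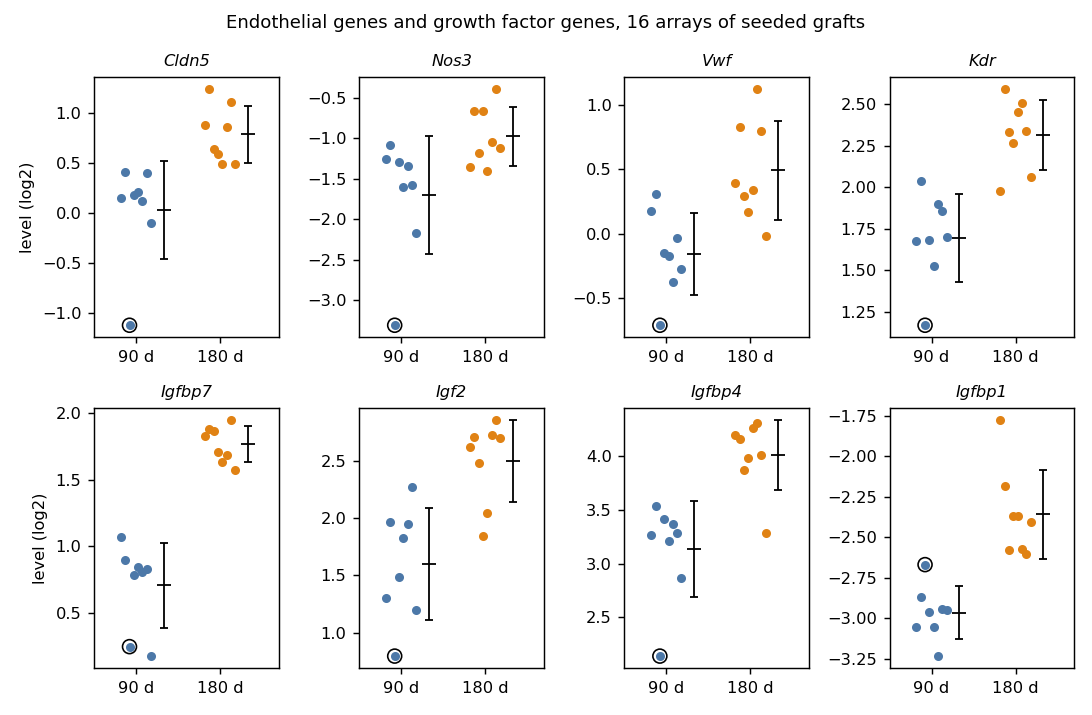
Level (y axis, log2 relative to the 75th percentile) of 4 endothelial genes and 4 growth factor genes on each of the 16 arrays, by day after surgery, with the mean ± SD of each group and replicate 3 of 90 days circled. Igfbp7, Igfbp1 and Cldn5 separate without overlap, and the circled array is the lowest at 90 days for the 4 endothelial genes, Igf2 and Igfbp4.

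Pecam1, the endothelial adhesion molecule, changed by 0.50 ± 0.16 (adjusted p = 0.0190 in limma's fit) and Sox18 by 0.61 ± 0.19 (adjusted p = 0.0123), neither past the threshold. Vegfa, the growth factor that calls vessels, changed by -0.09 and Angpt2 by 0.15 (0.07 without replicate 3). The summed level of the 4 defining endothelial markers was 2.35 to 3.55 at 90 days and 3.23 to 4.07 at 180 days on the log2 scale. These markers are themselves members of the list, and the ranges overlapped.

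Further genes of vessels and their mural cells were picked out after their values had been seen, and so support nothing by their number. Cox4i2, a respiratory chain subunit of pericytes and lung, rose by 0.86 without overlap, and by 0.87 without replicate 3. Ace, the angiotensin-converting enzyme, rose by 0.81, Higd1b, a pericyte gene, by 0.70 and Erg, an endothelial ETS factor, by 0.69, and these also passed without that array. Gja4, a connexin of arteries, at 0.74 and Rasip1 at 0.69 passed only with it, as did Ednra (0.67), Epas1 (0.66), Cd248 (0.66), Ephb4 (0.62), Sod3 (0.61) and Adgrf5 (0.59).

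Pdgfrb, the PDGF receptor of pericytes and stromal cells, was between -1.49 and 0.33 at 90 days (median 0.13) and between 0.37 and 1.09 at 180 days (median 0.89). It rose by 0.82 ± 0.19, and by 0.62 without replicate 3, its lowest array. Fitted on the 16 arrays alone, it did not pass. It was the 1 gene of 13 measured on the list of stromal surface markers to pass. Thy1 changed by 0.58, Pdgfra by 0.22, Cd44 by -0.04 (-0.15 without replicate 3) and Alcam by -0.44.

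In the developmental pathways 1 or no gene of each list passed, against 2.93% of all genes that rose. Wnt1, a secreted ligand of early nervous tissue, was between -2.20 and -1.46 at 90 days (median -1.81) and between -1.37 and -0.32 at 180 days (median -0.60). The groups did not overlap, and the rise was 1.18 ± 0.17 (adjusted p = 9.49e-08 in limma's fit). It was the 1 member of 11 measured Wnt genes to rise, and the median of the 11 was 0.21. Dkk2, a Wnt antagonist, changed by 0.89 ± 0.28 (adjusted p = 0.0139). Among 24 measured genes of the Bmp and Tgf-beta pathways, Id3 alone passed, Bmp4 changed by 0.30 ± 0.23, Bmp2 by -0.07 ± 0.24 and Tgfb1 by 0.51 ± 0.19 (adjusted p = 0.0428). These changes were 0.15, 0.09 and 0.33 without replicate 3 of 90 days.

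The Hedgehog pathway was below the reach of many probes. Shh, the ligand that urothelium sends to the stroma, was well above background on 0 arrays at 90 days and on 1 at 180 days. Of 5 genes measured none passed in limma's fit and none did in the unmoderated test, with a median of 0.22 (0.10 without replicate 3 of 90 days). Ptch1, receptor and target of the pathway, changed by 0.59 ± 0.31 and Gli1, a target, by 0.26 ± 0.24, or 0.10 without that array. Wnt5a was well above background on 8 arrays at 90 days and 7 at 180 days and was not tested.

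Other lists had 1 member past the thresholds each, where 2.93% of all genes rose and 0.362% fell. The nerve and Schwann cell list had 10 genes measured. Th, tyrosine hydroxylase of sympathetic nerves, was between -1.04 and -0.72 at 90 days (median -0.95) and between -0.43 and 0.01 at 180 days (median -0.21), and rose by 0.69 ± 0.12 without overlap. The Schwann cell genes Mbp (-0.54 ± 0.33) and S100b (0.26 ± 0.42) did not pass. Fdft1, squalene synthase, was between 1.96 and 2.35 and then between 2.49 and 3.18, a rise of 0.76 ± 0.09 without overlap. It stood alone in cholesterol synthesis, where 14 of the 19 measured genes lay below 0 and the median was -0.18 (-0.06 without replicate 3 of 90 days).

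Npas2, a partner of the clock protein Bmal1, was between -2.23 and -1.54 at 90 days and between -1.54 and -0.06 at 180 days, and rose by 0.83 ± 0.14. Nr1d2 changed by -0.34 and Per3 by 0.39, and the hour of sampling was not given. Cyp26b1, which breaks down retinoic acid, rose by 1.01 ± 0.29, and without replicate 3 its change of 0.96 no longer passed. Nor did it pass on the 16 arrays alone. Fosb, an immediate early gene, was between -0.74 and 0.19 and then between 0.15 and 1.03, and rose by 0.78 ± 0.15. These were the only calls among 10 clock genes, 19 steroid and retinoid genes and 19 immediate early and stress genes measured. Over all genes 2.93% rose.

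Urothelial genes gave no call, where 2.93% of all genes rose and 0.362% fell. None of 13 measured passed in limma's fit or in the unmoderated test, and 2 were lower and none higher at an unadjusted p below 0.05. Over all 7737 genes, 1289 were lower and 1149 higher at that level. Their median was -0.38 (-0.26 without replicate 3 of 90 days), and 12 of the 13 lay below 0. Upk1a, a tetraspanin of the urothelial plaque, was between 5.21 and 6.66 at 90 days (median 5.81) and between 4.86 and 5.98 at 180 days (median 5.46), with a change of -0.36 ± 0.44, or -0.24 without that array. Upk2 was between 3.63 and 6.21 and then between 3.46 and 4.89, and replicate 3 was its highest array at 90 days. The uroplakin groups overlapped widely.

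Krt18, a keratin of luminal cells, was between 4.96 and 6.46 at 90 days (median 5.60) and between 3.99 and 5.43 at 180 days (median 4.66). The change of -0.93 ± 0.45 had an adjusted p of 0.133 in limma's fit over 64 arrays. Fitted on the 16 arrays alone, it passed the thresholds. Its partner Krt8 changed by -1.04 ± 0.44 (adjusted p = 0.0794). Krt20, the keratin of the outermost umbrella cells, was well above background on 8 arrays at 90 days and 6 at 180 days, with means of -0.66 and -2.39, and was not tested. Krt5, the basal keratin, changed by 0.20 ± 0.55 and ranged from -0.35 to 4.55 at 180 days. The summed level of the defining urothelial markers was 7.10 to 8.48 at 90 days and 6.82 to 7.69 at 180 days. This sum includes Upk3a, saturated on 14 of the 16 arrays, and Upk1a, saturated on 2, and can be compressed.

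Smooth muscle genes gave 1 call, where 2.93% of all genes rose and 0.362% fell. Kcnma1, the pore of the large-conductance calcium-activated potassium channel, was between -2.13 and -0.91 at 90 days (median -1.52) and between -1.02 and -0.26 at 180 days (median -0.57), and rose by 0.92 ± 0.23. It went against the rest of the list, in which 19 of 22 genes lay below 0 with a median of -0.26. At an unadjusted p below 0.05, 2 of the 22 were higher and none lower. Over all 7737 genes, 1149 were higher and 1289 lower at that level. Myh11, the smooth muscle myosin heavy chain, changed by -0.23 ± 0.30, with 11 of 16 arrays saturated, and a dimmer probe changed by -0.49 without passing. Cnn1, calponin, changed by -0.59 ± 0.44, Des, desmin, by -0.35 ± 0.33 and Pln, phospholamban, by -0.63 ± 0.35. Acta2, the actin that muscle shares with myofibroblasts, also lay above 0, at 0.56 ± 0.25 (adjusted p = 0.0951 in limma's fit). Itga8 was at 0.05, and at -0.08 without replicate 3 of 90 days. Actg2 was saturated on all 16 arrays and has no fold.

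**Figure D3:**
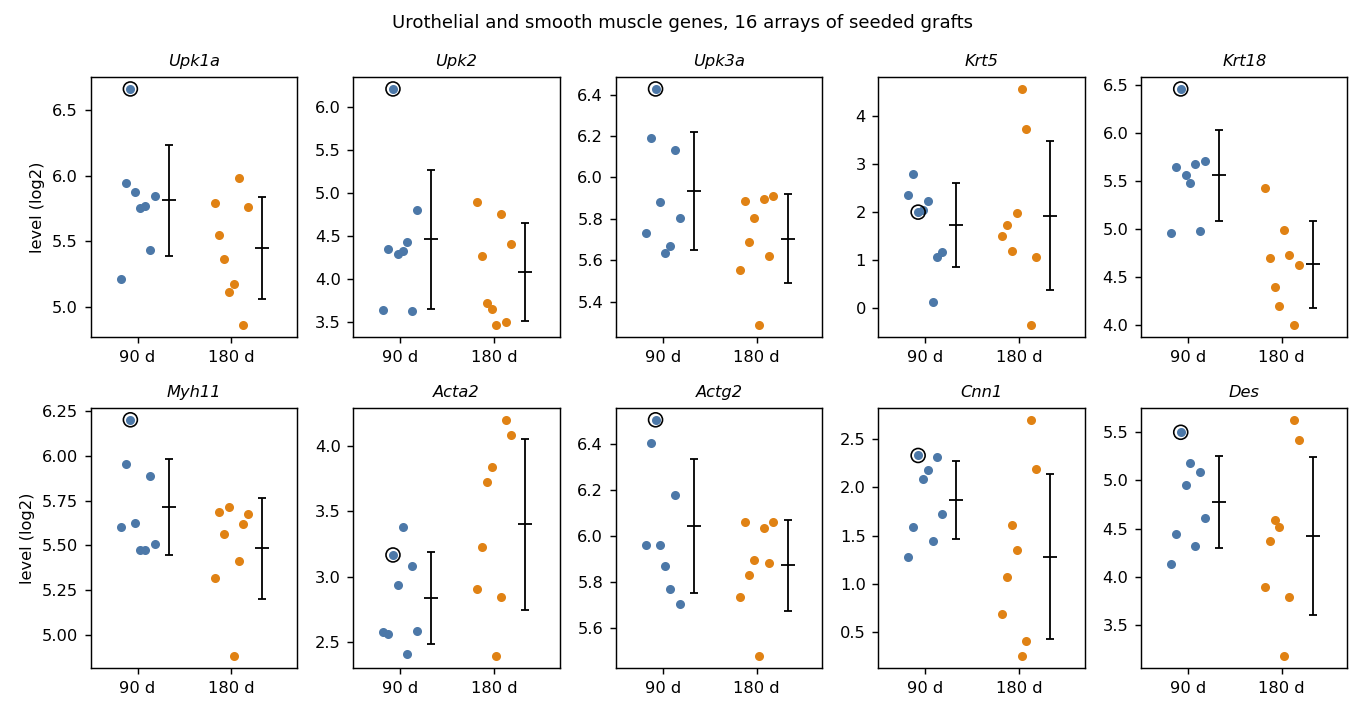
Level (y axis, log2 relative to the 75th percentile) of 5 urothelial and 5 smooth muscle genes on each array, by day after surgery, with the mean ± SD of each group. None of these 10 genes passed the thresholds, the groups overlap in every panel, and Actg2 was saturated on all 16 arrays.

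The summed level of the defining smooth muscle markers was 7.44 to 8.26 at 90 days and 6.85 to 7.94 at 180 days. This sum includes the saturated Actg2 and Myh11, which can compress it, so it does not compare the days. Bladder receptors for nerve signals had 6 of 15 genes measured. None passed in limma's fit or in the unmoderated test, 1 was lower at an unadjusted p below 0.05, and the median was -0.40. Of 8 striated muscle genes measured, Mb, myoglobin, alone passed, with a rise of 0.82 ± 0.18. It did not pass on the 16 arrays with the replicate number as a block. Of the 8 genes 5 lay above 0 and 3 below, the lowest being Tnnc2 at -0.65 and Tnni2 at -0.60. The summed marker level of striated muscle ran from 0.80 to 1.67 at 90 days and from 0.20 to 2.67 at 180 days.

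Matrix genes gave few calls, as did all genes, of which 2.93% rose and 0.362% fell. None of 14 fibrillar collagens and collagen enzymes passed in limma's fit or in the unmoderated test, and 4 were higher and 1 lower at an unadjusted p below 0.05. Col1a1, the main collagen of scar and stroma, was between 5.15 and 5.92 at 90 days (median 5.54) and between 5.26 and 5.70 at 180 days (median 5.65), with a change of 0.10 ± 0.15. It was saturated on 8 of the 16 arrays, and a dimmer probe of the gene changed by 0.53 (adjusted p = 0.0396). Col3a1 changed by -0.06 ± 0.13. P4ha1, a collagen hydroxylase, had the lowest value of the list at -0.55 ± 0.20, and Loxl1, which crosslinks elastin and collagen, the highest at 0.51 ± 0.23. Loxl1 was at 0.27 and Col3a1 at -0.12 without replicate 3 of 90 days.

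Elastic fibre and proteoglycan genes also gave no call among 17, with 5 higher and none lower at an unadjusted p below 0.05. Eln, elastin, was between -2.50 and 0.65 at 90 days and between -0.58 and 0.63 at 180 days. Its change of 0.64 ± 0.29 was 0.37 without replicate 3, its lowest array. The wound matrix genes Postn (0.01 ± 0.26) and Tnc (-0.03 ± 0.29) differed by less than the spread between arrays. Among metalloproteinases and inhibitors, Mmp15, a membrane-bound protease, was between 3.22 and 3.71 and then between 3.70 and 4.78, and rose by 0.75 ± 0.16, or 0.52 and below the fold under quantile normalization. Mmp2 changed by 0.44 ± 0.16 (adjusted p = 0.0293), Timp1 by -0.08 ± 0.24 (-0.26 without replicate 3) and Mmp7 by 1.58 ± 0.74 (adjusted p = 0.115).

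Immune lists gave few calls, but so did all genes, of which 2.93% rose and 0.362% fell. None of 16 macrophage genes passed in limma's fit or in the unmoderated test, and none did at an unadjusted p below 0.05. Their median was 0.26, and -0.09 without replicate 3 of 90 days. Cd68, a lysosomal macrophage protein, was between -1.52 and 3.29 at 90 days and between 0.92 and 3.54 at 180 days, and its change of 0.29 became -0.21 without that array, its lowest. Ptprc, the common leukocyte antigen, was between -3.44 and 0.69 and then between -2.06 and 0.96, with a change of -0.20 ± 0.39, or -0.64 without replicate 3. The summed level of the macrophage markers was -0.12 to 3.62 at 90 days and 1.66 to 3.81 at 180 days, beside which the rise of Cx3cr1 above stands.

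Complement genes had a median of 0.33, and 0.07 without replicate 3, with none of 16 past the thresholds in limma's fit or in the unmoderated test and 2 higher at an unadjusted p below 0.05. Of the interferon-induced genes 1 of 15 passed. Ifi27 was between 4.42 and 5.02 at 90 days (median 4.66) and between 5.13 and 6.02 at 180 days (median 5.51), a rise of 0.85 ± 0.17 without overlap, and was saturated on 2 arrays. Under quantile normalization its change was 0.56, below the fold. The others varied widely between arrays, as in Irf7 (1.04 ± 0.73) and Isg15 (0.73 ± 0.73). Pax5, the B cell factor, rose by 0.61 ± 0.16, while Xbp1, Sdc1 and Derl3 of plasma cells did not pass. Under normexp, quantile normalization and the percentile over detected probes Pax5, at 0.49, 0.56 and 0.54, missed the fold. Cd3e was well above background on 3 arrays at 90 days and 1 at 180 days and was not tested.

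Genes that every cell uses gave no call, where 2.93% of all genes rose and 0.362% fell. None of 36 ribosomal protein genes passed in limma's fit or in the unmoderated test and 1 was lower at an unadjusted p below 0.05. All 36 lay below 0, between -0.23 and -0.03, with a median of -0.15. Without replicate 3 of 90 days the median was -0.08, and Rpl30 (0.02) and Rpsa (0.04) lay above 0. In the respiratory chain none of 35 passed, with 4 higher and 9 lower at an unadjusted p below 0.05. Among housekeeping genes Tbp changed by -0.04 ± 0.06 (-0.02 without that array) and Gapdh by 0.14 ± 0.11. Sdha, a subunit of succinate dehydrogenase, changed by -0.34 ± 0.07 (adjusted p = 7.29e-05 in limma's fit), below the required fold. Mki67, the proliferation marker, changed by 0.39 ± 0.28, or 0.23 without that array, and none of 8 measured cell cycle genes passed in limma's fit or in the unmoderated test.

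The genes that fell did so by small amounts. Dnajb3, a heat shock cochaperone of testis, was between 0.00 and 3.11 at 90 days (median 1.39) and between -0.59 and 0.89 at 180 days (median 0.39). It fell by 1.17 on the log2 scale (SE 0.33, adjusted p = 6.09e-03 in limma's fit), with the groups overlapping. A dimmer probe of the gene, at -0.95, did not pass (adjusted p = 0.0327 in the same fit). Dusp16, a phosphatase of the JNK and p38 kinases, was between -1.37 and -0.32 and then between -2.08 and -1.45, and fell by 0.71 without overlap. Ddx10, an RNA helicase, was between -1.77 and -1.20 and then between -2.73 and -1.89, and fell by 0.68 without overlap (adjusted p = 8.15e-06 in limma's fit).

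Hook2, a microtubule adaptor, fell by 0.76 and Selenoo, a mitochondrial selenoprotein, by 0.65, each with 7 of 8 later arrays below all earlier ones. Me1, the malic enzyme that feeds fat synthesis, was between 0.84 and 3.01 at 90 days (median 1.29) and between 0.52 and 1.30 at 180 days (median 0.65). It fell by 0.71, with a dimmer probe at -0.36 that did not pass, and replicate 3 was its highest array. Without that array the changes of Me1 (-0.49), Plce1 (-0.57) and Hopx (-0.52) no longer passed, and Dnajb3, at -0.93, did not either. None of these genes passed when fitted on the 16 arrays alone. Ankrd37, a hypoxia-induced gene, fell by 0.69 and was the 1 fall among the listed genes. Pigh fell by 0.67 in its brightest probe, while its other probe changed by 0.04. Under normexp, Dusp16 (-0.57), Ddx10 (-0.53), Pigh (-0.53), Ankrd37 (-0.52) and Selenoo (-0.48) missed the fold.

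Probes of a gene could disagree. Of 979 genes with more than 1 probe tested, Agps, an enzyme of ether lipid synthesis, had 1 probe that rose by 0.83, 1 that fell by 0.66 and 1 at 0.02.

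Genes with olfactory or vomeronasal receptor symbols, sensory receptors of the nose, were looked at after their values had been seen. Of 17 tested, 10 rose, against 2.93% of all genes, none fell in limma's fit, and all 17 changes lay above 0. Vom1r61 was between -2.02 and -1.59 at 90 days and between -1.21 and -0.51 at 180 days, and rose by 0.98. Or6al1 was between -1.44 and -0.92 and then between -0.42 and 0.07, and rose by 0.90. Both separated without overlap. Whether these probes measure the receptors' transcripts was not tested, and the local background given above was higher on the slide of 180 days.

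Over all 40 lists, 916 genes were named, 825 were on the array and 500 were measured on all 16 arrays. Of these 22 rose and 1 fell, where 2.93% of all named genes rose and 0.362% fell. In 16 lists at least 1 gene passed, in 23 none did in limma's fit nor in the unmoderated test, and the list of prostate and seminal vesicle genes had none measured. The fat hormone Lep was well above background on 0 of the arrays. Adipoq, the fat cell hormone adiponectin, was well above background on 6 arrays at 90 days and 8 at 180 days. The summed level of the red blood cell markers was 5.86 to 6.94 at 90 days and 6.24 to 7.16 at 180 days.

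**Figure D4:**
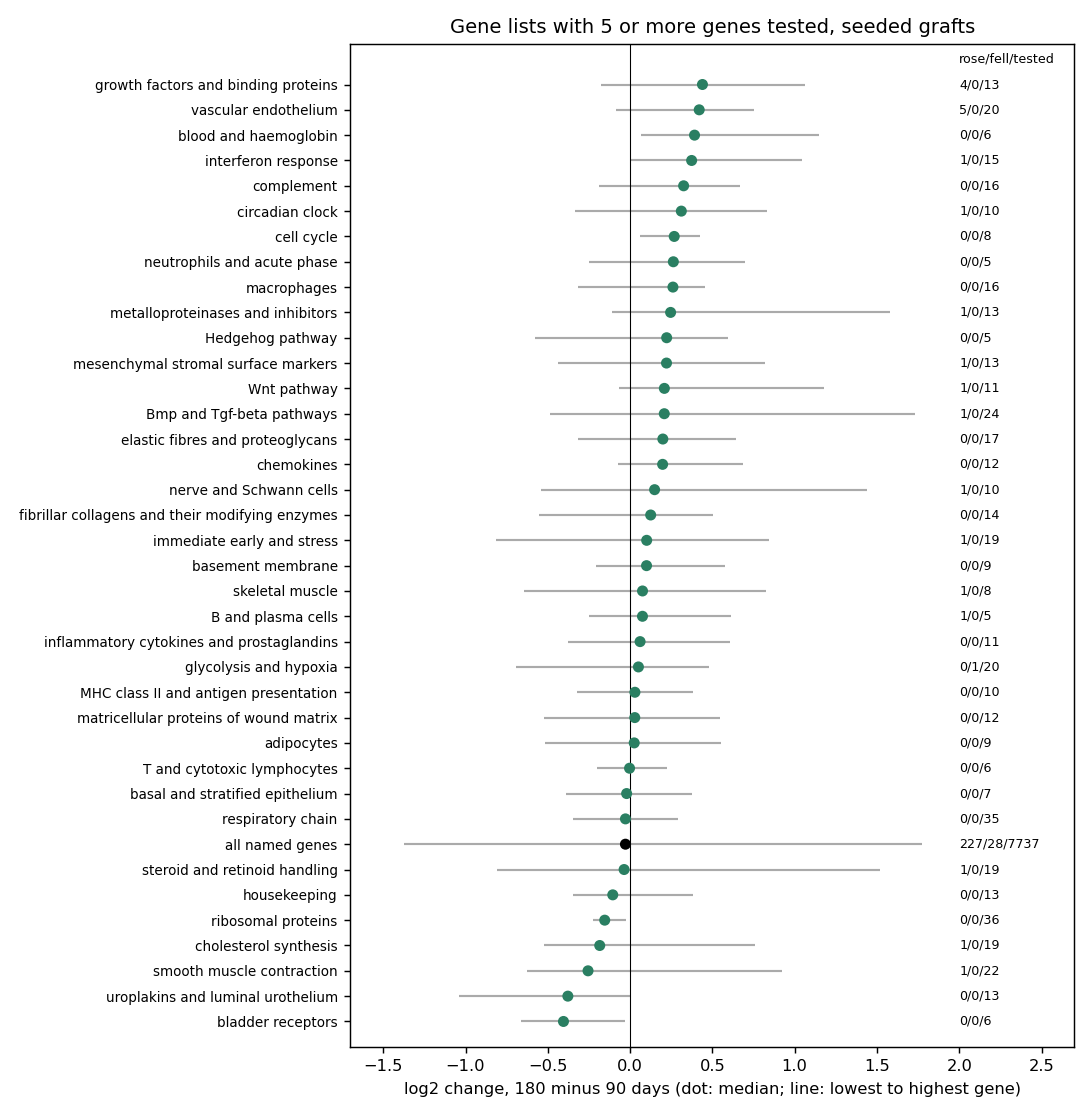
Change from 90 to 180 days (x axis, log2) for each list with 5 or more genes tested, with the median as a dot, the lowest and highest gene as a line, and the numbers that rose, fell and were tested. Growth factors (median 0.44) and endothelium (median 0.42) lie farthest right, and bladder receptors (-0.40) and luminal urothelium (-0.38) farthest left.

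The unseeded grafts of the same times, BAM only at 90 and 180 days with 8 arrays each, give the same interval without ASCs. The difference tested was the change in seeded grafts minus the change in unseeded grafts, over 8597 probes well above background on all 32 arrays. It passed the thresholds for 1539 probes (17.9%), with 714 (8.31%) higher in seeded grafts and 825 (9.6%) lower, so that 46.4% were higher. With the percentile over detected probes 610 were higher and 1098 lower, 35.7% higher. Quantile normalization gave 649 higher and 577 lower, 52.9% higher. Without the filter on dim probes 1807 were higher and 1167 lower, 60.8% higher. The direction of the excess thus depended on the processing. By genes, 202 (3.86%) of 5238 had a higher change and 351 (6.7%) a lower one. The slide of unseeded grafts at 90 days had local backgrounds of 321 to 366, against 138 to 171 at 180 days, and 35.5% to 58.5% of its spots were well above background. Slide and group cannot be told apart in this difference either.

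Among the named genes Etv3 rose in seeded grafts and had the opposite sign in unseeded grafts, at -1.21, a difference of 2.99 ± 0.19 (SE; adjusted p = 4.96e-20 in limma's fit). Igfbp7 was at -1.18 in unseeded grafts, a difference of 2.24 ± 0.18. Mmp15 was at -1.14 there, with a difference of 1.89 ± 0.22. Wnt1 (1.91), Th (1.60), Vwf (0.92) and Fdft1 (0.67) also had higher changes in seeded grafts, of which Fdft1, at 0.56 under quantile normalization and 0.57 with the percentile over detected probes, then missed the fold. For Etv3, Igfbp7 and Mmp15 the level of unseeded grafts at 90 days, at means of 2.53, 1.96 and 4.51, stood near or above that of seeded grafts at 180 days, at 2.68, 1.77 and 4.22. So did that of Wnt1 (-0.62 against -0.66), Th (0.28 against -0.21), Dlx3 (-0.28 against -0.37) and Ppp1r35 (0.68 against 0.30). For Fdft1 (2.14 against 2.89), Vwf (0.29 against 0.49) and Bcl11a (-0.39 against 0.78) it was lower. Of the 500 risen probes tested for the difference, 397 passed with a larger change in seeded grafts and 0 with a smaller one. They were chosen for rising in seeded grafts, so this count supports nothing by itself.

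Igf2 changed by 0.71 in unseeded grafts as well, and the difference of 0.18 ± 0.27 did not pass. Cldn5 was at 0.95 in unseeded grafts, with a difference of -0.20 ± 0.23, and Cx3cr1 at 0.81, with a difference of 0.62 ± 0.29 (adjusted p = 0.0903 in limma's fit). The changes of Krt18 (-2.15 ± 0.64) and Me1 (-0.997 ± 0.27) were lower in seeded than in unseeded grafts. The Krt18 difference did not pass under quantile normalization (-1.61), without the filter on dim probes, or without replicate 3 (-2.02) or 180-day replicate 7 (-2.06) of seeded grafts or 90-day replicate 5 of unseeded grafts (-1.75). That of Me1 did not pass on the 32 arrays alone. The uroplakins Upk1a (-1.62 ± 0.63) and Upk2 (-1.88 ± 0.81) did not pass. In unseeded grafts the median change was 0.83 for ribosomal protein genes, 0.72 for urothelium and 0.60 for smooth muscle, against 0.03 over all genes. Of 36 ribosomal protein genes, 35 passed with a lower change in seeded grafts, against 6.7% of all genes. The slide of unseeded grafts at 90 days had local backgrounds of 321 to 366, and its part in these changes was not tested.

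**Figure D5:**
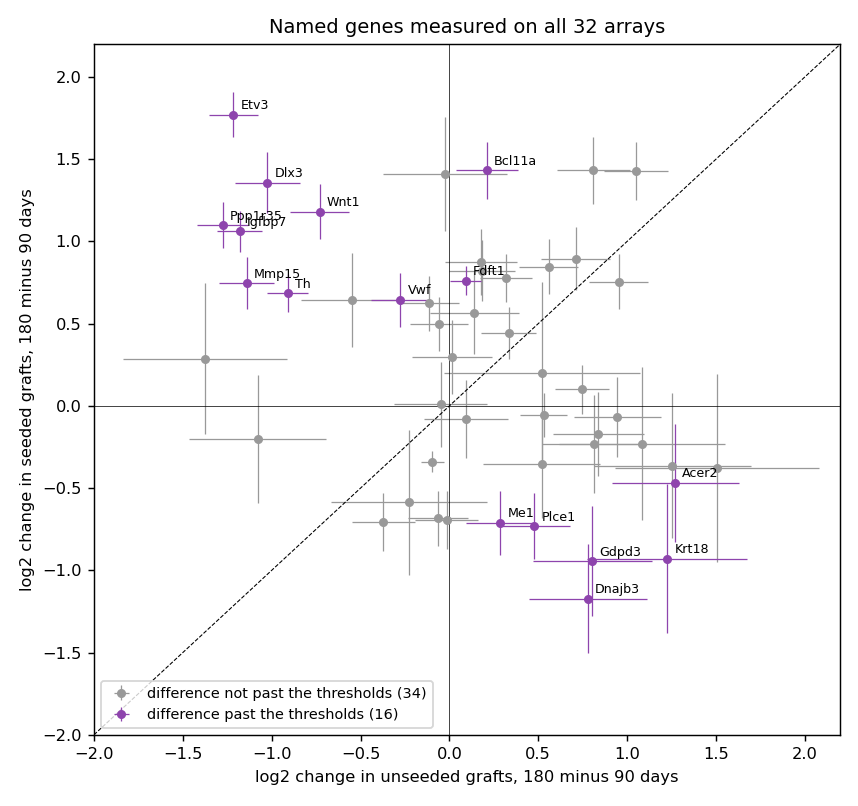
Change from 90 to 180 days in seeded grafts (y axis, log2) against the change in unseeded grafts (x axis, log2) for the 50 named genes measured in both, with standard errors and a dashed line of equal change. The 16 genes past the thresholds for the difference are marked, with Etv3 and Igfbp7 far above the line and Krt18 below it.

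Few probes were on in 1 group only. A_64_P012111 was well above background on all 8 arrays at 180 days and on none at 90 days, and was at least 3.86-fold higher at 180 days (adjusted p = 3.86e-14 in limma's fit over all probes). This bound sets the bright mean against, per array, the lowest signal among probes well above background or the probe's own where higher. A_64_P006132 was on at 90 days only, at least 1.76-fold higher then (adjusted p = 3.46e-03 in limma's fit over all probes). A_64_P085803 was also well above background at 90 days only, with a bound of 1.36-fold. Its adjusted p of 0.211 in limma's fit over all probes did not pass, so a difference in its level was not shown. None of these probes has a gene name here.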

How the data were processed

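Total RNA of the graft wall was labelled and hybridised to 1-colour Agilent arrays by the authors, 1 rat per array, 8 per group. The deposited scanner files hold spot intensity, and the processed intensity used here had been background-corrected by the authors' Agilent Feature Extraction 12.0.1.1, per the file headers. The authors' deposited value table, processed intensity on a linear scale, served as an alternative after log2. Of 62976 spots, 4259 control spots were left out. The log2 of the intensity was taken minus the array's 75th percentile over the other spots, outlier spots were dropped and spots of a probe averaged to 30367 probes, 18758 of them named by RefSeq accession without version. Probes well above background on all 16 arrays were tested, and 11 probe and array values among them were missing. A fit of group means over all 64 arrays (limma 3.58.1, R 4.3.3) gave the change, with Benjamini-Hochberg adjustment over all probes tested. The thresholds, an adjusted p below 0.01 and a fold above 1.5, followed the study's two-way ANOVA. The number of arrays limits the precision. Figures were drawn with matplotlib 3.10.9.

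The named genes were the 12 largest rises and 12 largest falls among DEGs saturated on no array (predicted LOC and RGD symbols left out), up to 4 DEGs of each list, a set given whatever its result (markers of urothelium, muscle, matrix, Hedgehog, leukocytes, fat and reference genes), and the 4 largest differences between grafts in each direction. Others named are listed members, or are said to have been chosen after their values were seen. The brightest probe stood for a gene. The members, lists and rules were chosen with earlier results of these data known. Alternatives were normexp (offset 50) on median spot and local background signals, quantile normalization, another percentile, the deposited table, no filter on dim probes, 16 arrays alone, a replicate block, the ANOVA without moderation, other thresholds, 1 probe per gene, and each array left out. Same-numbered arrays correlated between -0.209 and 0.508, over 0.1 in 3 of 8 pairs, and numbers were not used as pairs. The fitting steps were tested on simulated data. The authors' comparisons were not used. Some genes are not reported here and were left out of the lists.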

Additional observations from a re-analysis of the deposited data

Results flagged for a closer look

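An array lay far from the other 7 of its group, beyond Dixon's limit for the gap over the range, in 18 of 150 combinations of group and gene over 75 genes. Chance marks about 1 in 20 groups. Replicate 3 of 90 days was the array in 13 of the 18. It was the lowest for Cldn5 (0.67), Pdgfrb (0.823), Eln (0.558), Timp1 (0.554), Bmp4 (0.654), Cd68 (0.66) and Ptprc (0.643). It was the highest for Plce1 (0.528), Me1 (0.542), Dusp16 (0.613), Hopx (0.717), Upk2 (0.546) and Bmp2 (0.538). The endothelial, stromal and leukocyte genes were thus low and uroplakin 2 high on 1 array. Fosb had a low array at 90 days, replicate 6 (0.569). At 180 days Gnal was low on replicate 6 (0.532), Col1a1 on replicate 5 (0.84) and Igfbp4 on replicate 8 (0.569), and Selenoo was high on replicate 5 (0.655).

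The change from 90 to 180 days differed between seeded and unseeded grafts for 16 of the 50 named genes measured in both, by limma's test of the difference. The named genes include the 4 largest differences in each direction by rule, so this share is not a result. Over all 5238 genes, 3.86% had a higher change in seeded grafts and 6.7% a lower one. Higher changes in seeded grafts, as the log2 difference, were those of Etv3 (2.99), Dlx3 (2.38), Ppp1r35 (2.38), Igfbp7 (2.24), Wnt1 (1.91), Mmp15 (1.89), Th (1.60), Bcl11a (1.22), Vwf (0.92) and Fdft1 (0.67). Lower changes were those of Krt18 (-2.15), Dnajb3 (-1.95), Gdpd3 (-1.75), Acer2 (-1.74), Plce1 (-1.21) and Me1 (-0.997). Of these, Krt18 and Acer2 did not pass without replicate 3 of seeded grafts at 90 days (-2.02 and -1.55), without replicate 5 of unseeded grafts at 90 days (-1.75 and -1.45) or without the filter on dim probes. Krt18 also missed without replicate 7 (-2.06), and Acer2 without replicate 4 (-1.62), of seeded grafts at 180 days. Krt18 was lost under quantile normalization (-1.61), Gdpd3 with the replicate block, and Me1 on 32 arrays with or without it. Fdft1 missed the fold under quantile normalization (0.56) and the percentile over detected probes (0.57). The median local background on the slide of unseeded grafts at 90 days was 321 to 366, and its part in these differences was not tested.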

How the results depend on the processing

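The count of DEGs, 835, stayed within 1.5 times under normexp (641), quantile normalization (693), the percentile over detected probes (759), the deposited table (826), the fit on 16 arrays (802), the ANOVA without moderation (816), an adjusted p below 0.05 (931) and outlier spots kept (833). The replicate block gave 756, and same-numbered arrays correlated between -0.209 and 0.508, over 0.1 in 3 of 8 pairs, with 2 arrays closest to their own number. Without a filter on dim probes 1256 DEGs were called, and 2974 for the difference between grafts. A fold of 2 left 255 (254 rises and 1 fall), 1 probe per gene 241 (215 and 26) and, in an alternative chosen after seeing the data, named probes only 268 (233 and 35), where fewer probes were tested. The falls, 57, became 13 under normexp, 104 under quantile normalization, 138 with the percentile over detected probes and 187 without the filter. The causes were not tested. Leaving out each array gave 744 to 909 DEGs, 692 to 832 rises, 45 to 78 falls and 1473 to 1596 differences. Of 45 named DEGs at least 37 passed each time. Leaving out 1 array ended the call of Nos3 for 9 of the 16 arrays (0.50 to 0.75), Cyp26b1 for 7 (0.79 to 1.01), Dnajb3 for 6 (-1.14 to -0.93), Plce1 for 4 (-0.70 to -0.57), Igfbp1 for 3 (180-day replicates 1 and 2 and 90-day replicate 6), Pax5 for the same 3, Me1 for 3 (-0.68 to -0.49), Kdr for 2 (90-day replicate 3 and 180-day replicate 2), Vwf for 2 (90-day replicate 3 and 180-day replicate 6), Cnfn for 2 and Hopx for 1. Postn, at 0.01, turned to -0.043 under quantile normalization and -0.068 with the percentile over detected probes. Leaving out each array gave changes of both signs for 8 of the named genes chosen by rule, none of them called. They ran from -0.18 to 0.52 for Krt5, -0.12 to 0.0054 for Col3a1, -0.13 to 0.11 for Postn and -0.11 to 0.12 for Tnc. The ranges were -0.26 to 0.015 for Timp1, -0.15 to 0.090 for Bmp2, -0.21 to 0.48 for Cd68 and -0.64 to 0.013 for Ptprc. For 1 array the deposited table lacked values for 26650 spots, and that array was left out there. Fold changes of saturated probes can be compressed.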
